A study of Mus musculus with 2 samples.

Results

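The liver genes of blood coagulation, fibrinolysis and complement were compared between livers of mice treated with acetoaceto-o-toluidide (abbreviated AAOT), which is built on the aromatic amine o-toluidine, and livers of control mice. The set held 39 genes, chosen by symbol for the known role of their proteins, with earlier results of these data known. All 39 were found among the 15526 gene symbols of the table. By role, 18 belong to coagulation, 3 to fibrinolysis and 18 to complement. Serpin inhibitors were not included.

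The AAOT group was 1 library made from mixed liver RNA of 3 female NOG-TKm30 mice of 22 weeks of age that received 0.3% AAOT over 4 weeks. The control group was 1 library made in the same way from 3 female NOG-TKm30 mice of 22 weeks that received 0%. NOG mice are severely immunodeficient and lack mature lymphocytes and NK cells. All animals of both groups carry TKm30, a mutant cDNA of herpes simplex virus thymidine kinase (HSVtk) driven by the enhancer and promoter of the mouse transthyretin gene, which is active in hepatocytes. The labels also name C57BL as the strain background, and this was left as it stands. The sources used here do not name the route of treatment. Because each pool mixes 3 animals and there is 1 library per group, neither a spread between mice nor a p-value could be computed, and every ratio below is that of these pools.

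Hepatocytes make most circulating clotting and complement proteins. In coagulation, a cascade of serine proteases ends in thrombin, which turns fibrinogen into fibrin, while plasmin dissolves the clot. In complement, the classical, lectin and alternative routes meet at cleavage of C3 and end in a membrane pore built from the terminal components. Several of these genes, among them the fibrinogen genes and C3, are known to be induced in liver during the acute phase response to inflammation.

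Values are read counts scaled to library size (CPM) as deposited, and the reads behind them were recovered from the steps of the values. The libraries held 16528533 reads in the AAOT pool and 18801241 reads in the control pool. The 8 hepatocyte markers were all present and summed to 98706 CPM in the AAOT pool and 113356 CPM in the control pool, led by albumin (Alb) at 50829.8 CPM in the AAOT pool and 57688 CPM in the control pool. Of these 8 markers, 6 were lower in the AAOT pool, where 53.6% of all 7761 genes of at least 10 CPM were lower. The log2 ratios of the 8 markers ranged from -0.71 to 0.42. The 7 Kupffer cell markers (highest, Clec4f) summed to 316 CPM in the AAOT pool and 294 CPM in the control pool. The 8 sinusoidal endothelial markers (Stab2) summed to 504 CPM in the AAOT pool and 493 CPM in the control pool, and the 7 stellate cell markers (Reln) to 572 CPM in the AAOT pool and 655 CPM in the control pool. The 5 cholangiocyte markers (highest, Sox9) and the 5 platelet markers (Itga2b) were scarce. The cholangiocyte sum was 9.38 CPM in the AAOT pool and 10.7 CPM in the control pool, and the platelet sum was 8.49 CPM in the AAOT pool and 6.03 CPM in the control pool, with none of their genes at 10 CPM. No marker of any list was at 0 in either pool. In mixed tissue, fewer cells of a type cannot be told apart from less RNA per cell.

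Coagulation, fibrinolysis and complement transcripts were mostly lower in the AAOT pool, by small ratios. The 39 genes together took 3.85% of reads in the AAOT pool and 4.61% in the control pool. Of these genes, 37 had a mean of at least 10 CPM over both pools, and 30 of the 37 were lower in the AAOT pool, where 53.6% of all 7761 genes at that level were lower by any amount. Their median log2 ratio, taken as log2((AAOT + 1)/(control + 1)), was -0.18, beside -0.02 for all 7761 genes. The 7 lowest ratios were those of the terminal complement genes C9, C8a and C8b, of C4b and of the fibrinogen genes Fgb, Fgg and Fga. C-reactive protein (Crp), factor VII (F7) and Hgfac had the highest. The direction depends on the scale for the genes near equality: when the sum of the 8 hepatocyte markers was set equal between the pools, a choice made after seeing the data, the median of all genes moved to 0.18 and that of the members to 0.0164, and 17 of 37 were lower, beside 16.04% of all genes on that scale. The genes that changed sign on that scale were the 13 genes C4bp, C8g, F10, F11, F13b, F2, F9, Hc, Klkb1, Kng1, Mbl2, Plg and Pros1. On both scales the median of the members lay 0.16 below that of all genes on the log2 scale (a difference of -0.16). Scaling multiplies the whole column by 1 factor and shifts all log2 ratios nearly alike, so this distance could hardly change. The part of the lower hepatocyte marker sum in the result was not tested.

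The size of these ratios was limited. Of the 37 genes, 2 (C9 and C8a) were at least 1.5-fold lower, where 1.39% of all genes were, and 0 were at least 1.5-fold higher, where 2.07% of all genes were. Likewise 0 of 37 were at least 2-fold lower and 0 at least 2-fold higher, beside 0.425% and 0.773% of all genes. At a size of 1.2-fold, 12 of 37 were lower, where 9.46% of all genes were, and 1 was higher, where 9.33% of all genes were. The 95% counting interval of the ratio, which covers only the error of counting reads, lay wholly below 1 for 27 of 37 genes and for 20.8% of all genes. It lay wholly above 1 for 7 of 37 and for 18.7% of all genes, and included 1 for the other 3. Because the interval narrows with the number of reads and these genes are abundant, the same was done for genes of at least 100 CPM. There, 26 of 32 members were lower by any amount, beside 49.6% of 1531 genes, and 10 of 32 were at least 1.2-fold lower, beside 10.6% of 1531 genes. The interval lay wholly below 1 for 23 of 32 members, beside 33.2% of 1531 genes, and wholly above 1 for 6 of 32, beside 35.1%.

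**Figure D1:**
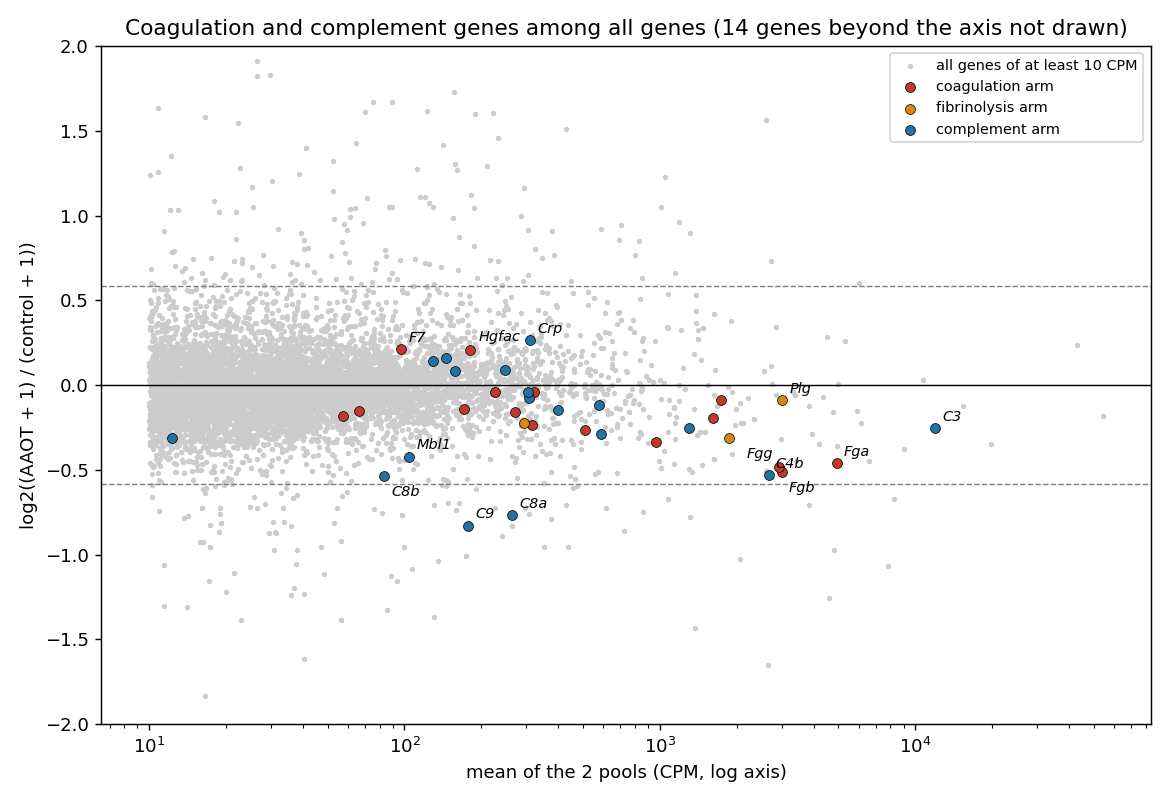
Each point is a gene of at least 10 CPM, with its mean over both pools (CPM, log axis) on the x axis and log2((AAOT + 1)/(control + 1)) on the y axis. Coloured points are the 37 coagulation, fibrinolysis and complement genes at that level and grey points are all others, of which 14 lie beyond the y axis. Dashed lines mark 1.5-fold. The coloured points lie mostly below 0, with C9 and C8a past the lower dashed line and Crp the highest of them.

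The final substrate of coagulation is fibrinogen, whose alpha, beta and gamma chains are encoded by Fga, Fgb and Fgg. These genes lie in 1 locus on chromosome 3 (GRCm38), with Fgg at 83007724 to 83015049, Fga at 83026076 to 83033627 and Fgb, on the other strand, at 83040141 to 83049863. Fga was at 4155 CPM in the AAOT pool and 5712 CPM in the control pool, 1.37-fold lower (95% counting interval 1.36 to 1.39). Fgb was at 2472 CPM in the AAOT pool and 3525 CPM in the control pool, 1.43-fold lower (1.41 to 1.44). Fgg was at 2438 CPM in the AAOT pool and 3411 CPM in the control pool, 1.399-fold lower (1.38 to 1.42). All 3 chains were thus lower by nearly the same ratio, with log2 ratios between -0.51 and -0.46. F13b, which encodes the carrier subunit of the enzyme that crosslinks fibrin, was at 224 CPM in the AAOT pool and 230 CPM in the control pool, for a ratio of 0.972 (0.930 to 1.02), and its interval includes 1.

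Because the fibrinogen chains moved together, the 250 bases before each RefSeq start (GRCm38.p6) are shown, 5′ to 3′ on the strand of the gene. They lie at chr3:83025903-83026152 on the plus strand for Fga, chr3:83049864-83050113 on the minus strand for Fgb and chr3:83007474-83007723 on the plus strand for Fgg. Capitals mark short letter matches, searched on both strands, to motifs of the hepatocyte factor HNF1 (GTTAATNAT), of C/EBP factors (TTGCNNAA), of STAT factors (TTCNNNGAA), of the interleukin-6 response element (CTGGGAA) and of HNF4 (CAAAGTCCA).
Fga: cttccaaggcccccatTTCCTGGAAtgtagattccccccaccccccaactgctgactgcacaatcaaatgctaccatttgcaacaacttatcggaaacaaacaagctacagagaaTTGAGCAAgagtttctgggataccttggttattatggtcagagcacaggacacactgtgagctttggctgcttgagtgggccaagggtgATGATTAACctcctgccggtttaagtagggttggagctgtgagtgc
Fgb: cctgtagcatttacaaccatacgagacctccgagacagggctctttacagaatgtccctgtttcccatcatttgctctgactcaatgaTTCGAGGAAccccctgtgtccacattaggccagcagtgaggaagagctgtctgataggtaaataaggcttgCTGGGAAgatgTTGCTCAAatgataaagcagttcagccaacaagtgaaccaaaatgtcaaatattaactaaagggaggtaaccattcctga
Fgg: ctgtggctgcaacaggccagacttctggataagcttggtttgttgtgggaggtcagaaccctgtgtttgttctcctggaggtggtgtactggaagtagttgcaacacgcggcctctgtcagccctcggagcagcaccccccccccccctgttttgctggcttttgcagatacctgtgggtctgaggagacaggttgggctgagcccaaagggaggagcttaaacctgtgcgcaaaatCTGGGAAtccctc
Counted back from the base before the start as -1, the Fga window held an HNF1 match at -46 to -38, a C/EBP match at -135 to -128 and a STAT match at -234 to -226. The HNF1 match lies downstream of 83026076, the Fga start given above, because the RefSeq start used for the window lies farther downstream. The Fgb window held a C/EBP match at -80 to -73, an interleukin-6 element match at -91 to -85 and a STAT match at -162 to -154, and the Fgg window held an interleukin-6 element match at -13 to -7. No match shown overlaps another. Windows were available for 31 of the 39 genes, 33 windows in all. The HNF1 letters stood in 4 of the 33 (C4bp, F13b, Fga and Hc) and in 0.744% of all 32544 windows of this length. The C/EBP letters stood in 7 of 33 (C3, C9, F11, F9, Fga, Fgb and Klkb1) and in 9.58% of all windows. The STAT letters stood in 8 of 33 (Apcs, C8a, F9, Fga, Fgb, Hgfac, Masp2 and Pros1) and in 7.04%. The interleukin-6 letters stood in 6 of 33 (Apcs, F9, Fgb, Fgg, Masp2 and Tfpi) and in 9.14%. The HNF4 letters stood in 0 of 33 and in 0.387%. A letter match describes the sequence and does not show binding.

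Among the vitamin K-dependent proteases and their cofactor, ratios ranged from lower to higher. F5, the cofactor with which factor Xa activates prothrombin, was at 852 CPM in the AAOT pool and 1077 CPM in the control pool, 1.26-fold lower (1.24 to 1.29). Prothrombin (F2) was at 1508 CPM in the AAOT pool and 1724 CPM in the control pool, 1.14-fold lower (1.12 to 1.16). Factor IX (F9) was at 162 CPM in the AAOT pool and 179 CPM in the control pool, 1.11-fold lower (1.05 to 1.16). Factor X (F10) and factor VII (F7) are neighbours on chromosome 8, at 13037308 to 13056676 and 13026034 to 13035809. F10 was at 317 CPM in the AAOT pool and 326 CPM in the control pool, a ratio of 0.973 (0.938 to 1.01), whose interval includes 1. F7, which with tissue factor starts coagulation, was at 104 CPM in the AAOT pool and 89.98 CPM in the control pool, 1.16-fold higher (1.08 to 1.24).

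The contact system starts coagulation at surfaces and releases bradykinin from kininogen. Factor XII (F12) was at 462 CPM in the AAOT pool and 555 CPM in the control pool, 1.2-fold lower (1.16 to 1.24), and its log2 ratio of -0.26 lay just short of the 1.2-fold size counted above. Plasma prekallikrein (Klkb1), its substrate, was at 256 CPM in the AAOT pool and 286 CPM in the control pool, 1.12-fold lower (1.07 to 1.16). Its neighbour on chromosome 8, factor XI (F11), was at 62.8 CPM in the AAOT pool and 70.0 CPM in the control pool, 1.11-fold lower (1.03 to 1.21), so both genes of this pair had close ratios. Kininogen (Kng1) was at 1676 CPM in the AAOT pool and 1781 CPM in the control pool, 1.06-fold lower (1.05 to 1.08). Hgfac, a protease related to factor XII that activates hepatocyte growth factor, went the other way, with 193 CPM in the AAOT pool and 167 CPM in the control pool, 1.15-fold higher (1.097 to 1.21).

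The inhibitory proteins C and S, which together inactivate factors Va and VIIIa, were lower. Protein C (Proc) was at 290.3 CPM in the AAOT pool and 341 CPM in the control pool, 1.18-fold lower (1.13 to 1.22). Protein S (Pros1) was at 53.8 CPM in the AAOT pool and 61.1 CPM in the control pool, 1.14-fold lower (1.04 to 1.24). Tissue factor (F3), the cell-surface trigger of coagulation, and its inhibitor Tfpi were both below 10 CPM. F3 had 43 reads in the AAOT pool and 50 reads in the control pool, a ratio of 0.954 (0.620 to 1.46), and Tfpi had 135 reads in the AAOT pool and 133 reads in the control pool, a ratio of 1.13 (0.880 to 1.44). A difference in either gene was not detectable at this depth. Tfpi is known as a product of endothelial cells, whose marker sum is given above, and the part of those cells in its level was not tested.

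The 3 genes of fibrinolysis were all lower, where 53.6% of all 7761 genes of at least 10 CPM were lower by any amount. Plasminogen (Plg), the precursor of plasmin, was at 2926 CPM in the AAOT pool and 3110.4 CPM in the control pool, 1.06-fold lower (1.05 to 1.08). Cpb2, the thrombin-activated carboxypeptidase that slows clot breakdown, was at 271 CPM in the AAOT pool and 315 CPM in the control pool, 1.17-fold lower (1.12 to 1.21). Vitronectin (Vtn), which binds the plasminogen activator inhibitor PAI-1 and also blocks the complement pore, was at 1661 CPM in the AAOT pool and 2060.5 CPM in the control pool, 1.24-fold lower (1.22 to 1.26). Plasminogen was thus the nearest of them to equality.

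**Figure D2:**
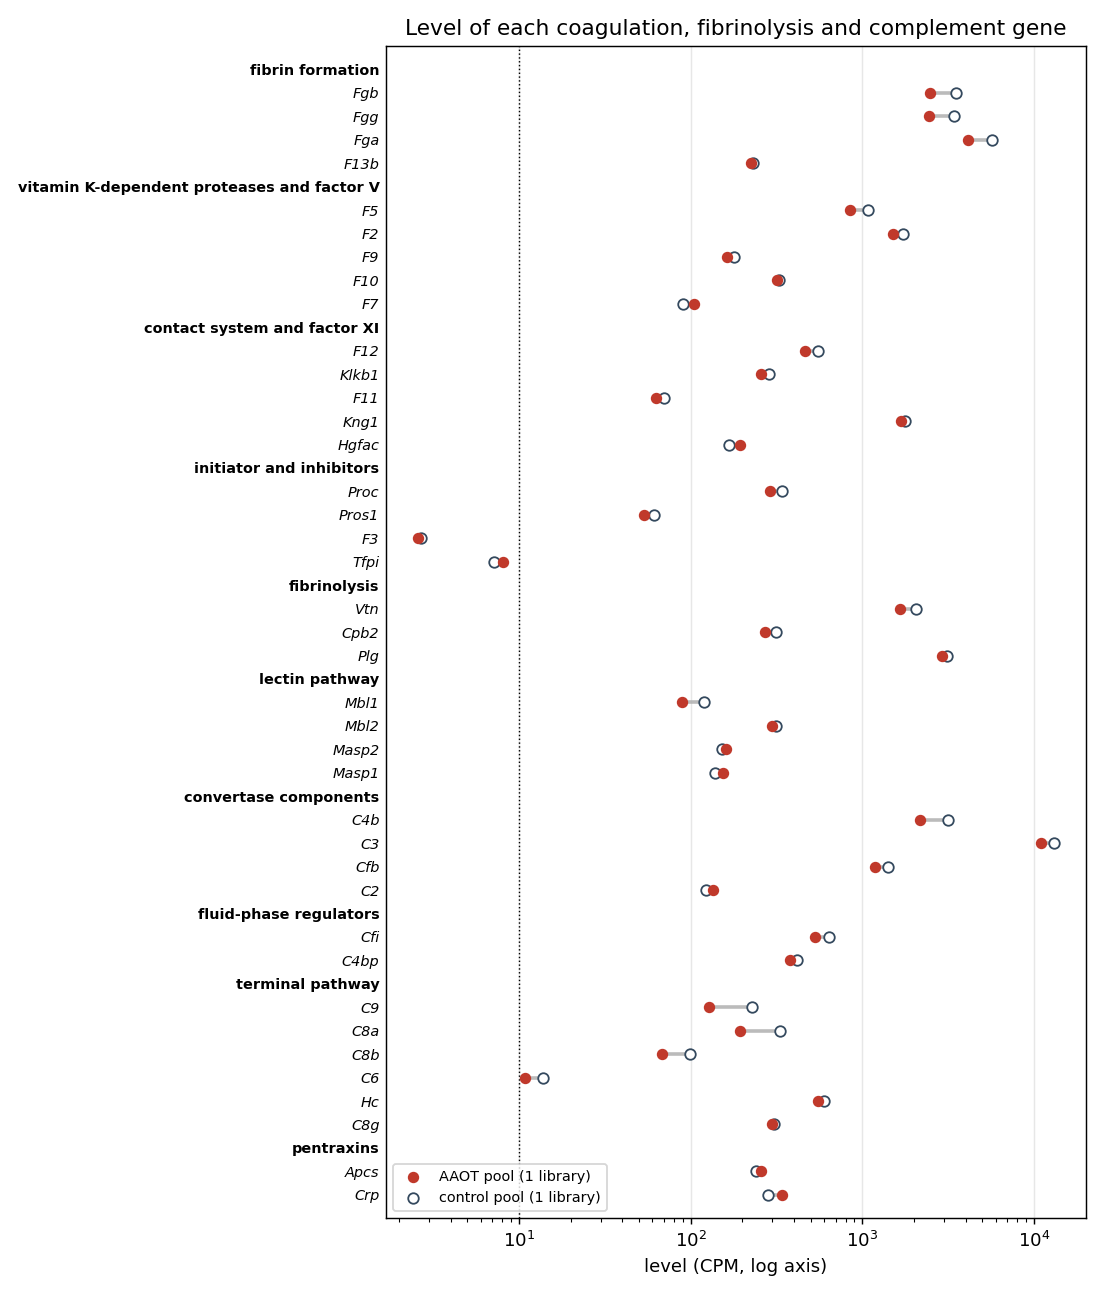
Each row is a gene, grouped by role. Filled red points give its level in the AAOT pool and open points its level in the control pool (CPM, log axis), with 1 library per pool and no error bar. The dotted line marks 10 CPM. The AAOT point lies left of the control point for most genes, with the widest gaps for C9 and C8a, while F3 and Tfpi lie below the dotted line.

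In complement, the lectin route begins with mannose-binding lectins, which recognise sugars on microbes, and their associated proteases. Mbl1 was at 89.2 CPM in the AAOT pool and 119.8 CPM in the control pool, 1.34-fold lower (1.26 to 1.44). Mbl2 was at 300.04 CPM in the AAOT pool and 316 CPM in the control pool, 1.05-fold lower (1.01 to 1.09). The proteases lay on the other side of equality. Masp1 was at 154 CPM in the AAOT pool and 138 CPM in the control pool, 1.12-fold higher (1.06 to 1.18), and Masp2 was at 162 CPM in the AAOT pool and 153 CPM in the control pool, 1.06-fold higher (1.004 to 1.12).

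The components of the C3 convertases are C4, C2 and factor B, which cleave the central protein C3. C3 (chromosome 17, 57203970 to 57228136) ranked 5 among all rows of the table in both pools, at 10940 CPM in the AAOT pool and 13035 CPM in the control pool, 1.19-fold lower (1.18 to 1.199). C4b was at 2179 CPM in the AAOT pool and 3153 CPM in the control pool, 1.45-fold lower (1.43 to 1.47). Factor B (Cfb), of the alternative route, was at 1191 CPM in the AAOT pool and 1417 CPM in the control pool, 1.19-fold lower (1.17 to 1.21). C2, its neighbour on chromosome 17, was at 135 CPM in the AAOT pool and 123 CPM in the control pool, 1.104-fold higher (1.04 to 1.17).

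Sequence shared with other genes limits 5 of these values. C4b shares 35.2% of its 50-base stretches with the neighbouring C4a, which was at 7.65 CPM in the AAOT pool and 10.1 CPM in the control pool. Their reads summed gave a 1.45-fold lower level (1.43 to 1.47), as for C4b alone. Kng1 shares 20.02% with Kng2, and their sum was 1.06-fold lower (1.05 to 1.08). Of the stretches of C2 42.0%, of those of Cfb 18.2% and of those of Klkb1 57.3% are unique. The rest are mainly shared with the annotated genes Gm20547 (C2 and Cfb) and Gm45753 (Klkb1), which were not analysed here, so the levels of these 3 genes are uncertain.

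The soluble regulators of complement were lower. Factor I (Cfi), the protease that inactivates C3b and C4b, was at 527 CPM in the AAOT pool and 645 CPM in the control pool, 1.22-fold lower (1.19 to 1.26). C4bp, a cofactor of factor I for C4b, was at 379 CPM in the AAOT pool and 419 CPM in the control pool, 1.11-fold lower (1.07 to 1.14). Both thus lay on the same side as C3 and C4b.

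The terminal components form the membrane pore, and their ratios were spread the most. C9, which polymerises into the wall of the pore, was at 127 CPM in the AAOT pool and 227 CPM in the control pool, 1.78-fold lower (1.69 to 1.88). C8a was at 195 CPM in the AAOT pool and 332 CPM in the control pool, 1.71-fold lower (1.63 to 1.78). These were the lowest ratios of all 39 genes, and only 0.67% and 0.812% of all genes of at least 10 CPM had a lower one. C8b, whose gene lies beside C8a on chromosome 4 (104766317 to 104804548, with C8a at 104815679 to 104876398), was at 67.8 CPM in the AAOT pool and 98.7 CPM in the control pool, 1.46-fold lower (1.35 to 1.57). C8g, which encodes the gamma chain of C8, a lipocalin, and lies on chromosome 2, was at 299.7 CPM in the AAOT pool and 308 CPM in the control pool, a ratio of 0.974 (0.937 to 1.01).

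C6 was at 10.9 CPM in the AAOT pool and 13.7 CPM in the control pool, 1.26-fold lower (1.04 to 1.54), from 182 reads in the AAOT pool and 255 reads in the control pool. Hc, which encodes complement C5, was at 553 CPM in the AAOT pool and 599 CPM in the control pool, 1.08-fold lower (1.05 to 1.11). All 6 terminal genes of the set had log2 ratios below 0, where 53.6% of all genes of at least 10 CPM had. Of their 6 counting intervals 5 lay below 1, beside 20.8% of all such genes.

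Pentraxins are pattern-recognition proteins that activate the classical route. Both of their genes were higher, where 3604 of all 7761 genes of at least 10 CPM were. Crp (chromosome 1, 172698055 to 172833031) was at 339 CPM in the AAOT pool and 281 CPM in the control pool, 1.204-fold higher (1.16 to 1.25), the highest ratio of the 37 genes. Apcs, which encodes serum amyloid P component, known as a main acute phase protein of mice, was at 256 CPM in the AAOT pool and 241 CPM in the control pool, 1.06-fold higher (1.02 to 1.11). The windows before the starts of the genes with the lowest and the highest ratio are shown for comparison with those of the fibrinogen genes, at chr15:6445096-6445345 for C9 and chr1:172697806-172698055 for Crp, both on the plus strand, with capitals as above.
C9: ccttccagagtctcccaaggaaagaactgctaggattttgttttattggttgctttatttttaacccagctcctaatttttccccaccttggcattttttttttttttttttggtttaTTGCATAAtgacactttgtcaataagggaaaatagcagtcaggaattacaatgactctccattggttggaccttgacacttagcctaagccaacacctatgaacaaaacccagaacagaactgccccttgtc
Crp: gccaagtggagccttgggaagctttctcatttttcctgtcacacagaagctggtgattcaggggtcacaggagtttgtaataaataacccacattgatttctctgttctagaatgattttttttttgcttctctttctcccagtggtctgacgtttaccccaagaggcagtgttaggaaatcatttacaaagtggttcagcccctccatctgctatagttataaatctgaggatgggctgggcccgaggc
The C9 window held a C/EBP match at -132 to -125, and the Crp window held no match to any of the 5 motifs. Among the members, the STAT letters stood before C8a, F9, Fga, Fgb and Pros1, all lower, and before Apcs, Hgfac and Masp2, all higher. The interleukin-6 letters stood before F9, Fgb and Fgg, all lower, before Apcs and Masp2, both higher, and before Tfpi, whose interval includes 1. All genes with HNF1 or C/EBP letters had log2 ratios below 0, as had 30 of the 37 members of at least 10 CPM. Any link of a match to a ratio was not tested.

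**Figure D3:**
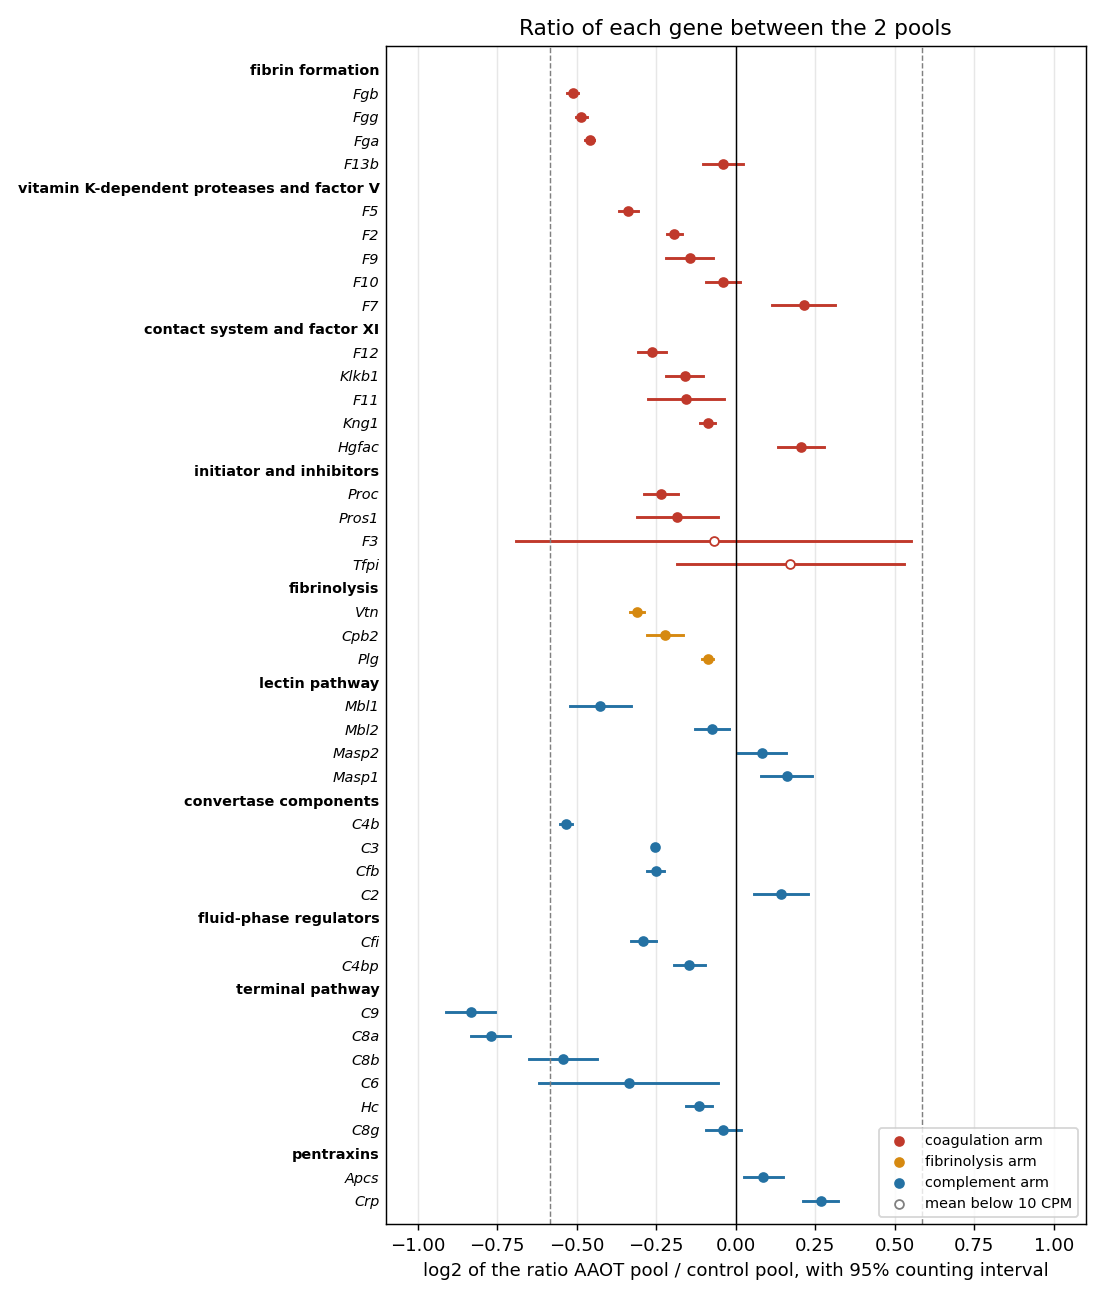
Each row is a gene, grouped by role, with the log2 of its plain ratio, AAOT over control (point), and its 95% counting interval (line). The vertical black line marks equality and the dashed lines 1.5-fold, and open points are genes with a mean below 10 CPM, with red for coagulation, orange for fibrinolysis and blue for complement. The fibrinogen chains lie close together near -0.5, while the terminal complement genes run from C9, the lowest, to C8g, whose interval includes 0 on this scale.

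As arms, coagulation, fibrinolysis and complement lay close together. The median log2 ratio was -0.17 over the 16 coagulation genes of at least 10 CPM, -0.22 over the 3 fibrinolysis genes and -0.20 over the 18 complement genes, so complement and coagulation differed by -0.03. In coagulation 14 of 16 were lower, 4 by at least 1.2-fold, and in complement 13 of 18 were lower, 7 by at least 1.2-fold. Of all 7761 genes of at least 10 CPM, 53.6% were lower and 9.46% were at least 1.2-fold lower. The complement genes were spread more widely, from -0.83 to 0.27, against -0.51 to 0.21 for the coagulation genes. By role, the medians were -0.47 for the 4 genes of fibrin formation and -0.42 for the 6 terminal complement genes. They were -0.25 for the 4 convertase components with C3, -0.22 for the 2 soluble regulators and -0.21 for proteins C and S. For factor V with the vitamin K-dependent proteases the median was -0.14, and for the contact system -0.15. For the lectin route it was 0.004 and for the 2 pentraxins 0.18. The summed CPM of each arm gave 1.28-fold lower for coagulation (1.28 to 1.29), 1.13-fold for fibrinolysis (1.12 to 1.14) and 1.21-fold for complement (1.202 to 1.213). These sums rest on a few abundant genes, since C3, Fga, Fgb, C4b and Fgg made up 76.9% of the net difference of 8650 CPM between the pools.

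Per kilobase of the principal annotated transcript, the order of levels was nearly the same in both pools. C3 ranked 1 of the 39 genes, at 2130.1 CPM per kilobase in the AAOT pool and 2538 CPM per kilobase in the control pool. Fga ranked 2, at 1606 CPM per kilobase in the AAOT pool and 2208 CPM per kilobase in the control pool. Fgg ranked 3, at 1438 CPM per kilobase in the AAOT pool and 2012 CPM per kilobase in the control pool. Plg ranked 4 in the AAOT pool and 5 in the control pool, where it changed places with Vtn. F3 was last in both pools, at 1.37 CPM per kilobase in the AAOT pool and 1.44 CPM per kilobase in the control pool. Fgb, at 649 CPM per kilobase in the AAOT pool and 925 CPM per kilobase in the control pool, stood below the other chains of fibrinogen. Its principal annotated transcript is the longest of the 3, and which isoforms these livers used is not known here.

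Ratios between genes of the same complex or step do not depend on the scaling between the pools. They were taken for 22 pairs chosen with the values known, as reads of the first gene per read of the second in the AAOT pool over the same in the control pool, with a normal approximation on the log scale for the interval. The interval included 1 for 6 pairs, lay below it for 13 and above it for 3. Which gene of a pair came first was a choice, and swapping the genes turns below into above. The counts of 13 and 3 therefore describe the chosen order, and pairs of other genes were not taken for comparison. The fibrinogen chains stayed near balance, although their intervals lay below 1, at 0.964 (0.949 to 0.979) for Fgb per Fga and 0.982 (0.967 to 0.998) for Fgg per Fga. C3 per Cfb was 0.999 (0.980 to 1.02), F11 per Klkb1 1.003 (0.916 to 1.098) and Masp1 per Masp2 1.06 (0.978 to 1.14). Pairs with Cfb, Klkb1 or C2 rest on levels that are uncertain because of shared sequence, which the counting interval does not cover.

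The balance of the C8 chains differed between the pools. There were 0.649 reads of C8a per read of C8g in the AAOT pool and 1.08 in the control pool, a ratio of 0.602 (0.569 to 0.637), and C8b per C8g gave 0.705 (0.649 to 0.766). The neighbours C8a and C8b differed less, at 0.854 (0.784 to 0.930) for C8a per C8b. C9 per Hc was 0.608 (0.573 to 0.645), while C9 per C8a was 0.957 (0.895 to 1.02). C4b per C2 was 0.626 (0.590 to 0.664), Mbl1 per Mbl2 0.784 (0.727 to 0.845) and F10 per F7 0.839 (0.777 to 0.906). In the other direction, F13b per Fga was 1.34 (1.28 to 1.398), F2 per Fga 1.202 (1.18 to 1.23) and Crp per Apcs 1.13 (1.07 to 1.199).

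**Figure D4:**
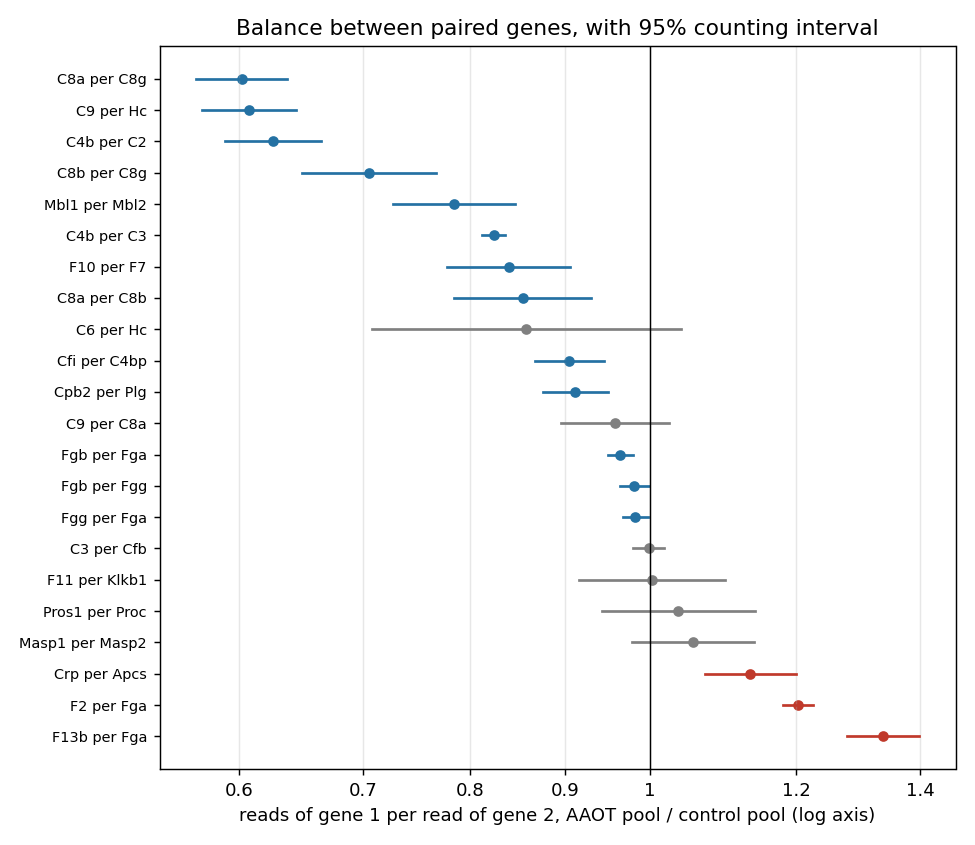
Each row is a pair of genes, with the reads of the first per read of the second in the AAOT pool divided by the same in the control pool (point, log axis) and its 95% counting interval (line). Blue intervals lie below 1, red above 1 and grey include 1. C8a per C8g, C9 per Hc and C4b per C2 lie farthest below 1 and F13b per Fga farthest above. The levels of C2, Cfb and Klkb1 are uncertain because of shared sequence.

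Other genes of the same pathways, 45 found of 47 listed, differed less as a list, but both lists were chosen with earlier results known. Of the 45 genes, 32 reached the floor of 10 CPM. Among these 32, 19 were lower, where 53.6% of all 7761 genes at that level were. At a size of 1.2-fold, 2 were lower and 1 was higher, beside 9.46% and 9.33% of all genes. None was past 1.5-fold (0 of 32), where 1.39% of all genes were lower and 2.07% higher by that size. The median log2 ratio of the 32 was -0.03, beside -0.02 for all genes. The lectin Colec10 was at 43.4 CPM in the AAOT pool and 56.4 CPM in the control pool, 1.301-fold lower (1.18 to 1.43), and the protease inhibitor Pzp, a relative of alpha-2-macroglobulin, at 5653 CPM in the AAOT pool and 6588 CPM in the control pool, 1.17-fold lower (1.16 to 1.18). Tfpi2, a protease inhibitor related to Tfpi, was at 57.8 CPM in the AAOT pool and 42.4 CPM in the control pool, 1.36-fold higher (1.24 to 1.501). Properdin (Cfp), which stabilises the alternative convertase, was 1.19-fold higher (1.04 to 1.36) and the plasminogen receptor subunit S100a10 1.18-fold higher (1.08 to 1.29).

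The enzymes that serve the vitamin K-dependent factors and the genes of C1q were named after their values were seen. The carboxylase Ggcx was at 204 CPM in the AAOT pool and 207 CPM in the control pool, a ratio of 0.985 (0.940 to 1.03), and the reductase Vkorc1 at 147 CPM in the AAOT pool and 148 CPM in the control pool, 0.994 (0.941 to 1.05), and both intervals include 1. Only 49.5% of the stretches of Vkorc1 are unique, and the rest are shared with Gm21974, so its level is uncertain. Its paralogue Vkorc1l1 was at 58.1 CPM in the AAOT pool and 51.4 CPM in the control pool, 1.13-fold higher (1.03 to 1.24), with 87.7% unique stretches. The genes of C1q, which macrophages make, had intervals that include 1, with ratios of 0.965 (0.849 to 1.097) for C1qa, 0.981 (0.868 to 1.11) for C1qb and 0.970 (0.858 to 1.097) for C1qc. The Kupffer cell markers listed above had a summed ratio of 1.07 (1.03 to 1.12).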

How the data were processed

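Per the labels' protocols, RNA of the livers was purified on columns, depleted of ribosomal RNA and made into directional libraries from 200 ng of total RNA. The authors deposited 1 table of CPM with a column for each pool, whose name holds the bracketed code of a sample's title. The build mm10 and the tools edgeR, RSEM, Bowtie2 and Trimmomatic 0.38 are named in the submitters' processing notes, with no role for each. No source used here names the annotation. The deposited CPM summed to 987690 in the AAOT pool and 1012463 in the control pool, so they include a scaling factor per library. All values (100%) were whole multiples of 1 step per column within a relative tolerance of 1e-06, which gave back the reads.

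With 1 library per group no count test was run on these reads and no p-value was computed, and no replicate could be left out. Ratios used an added constant of 1 CPM in the log2 ratio, and genes entered counts at a mean of 10 CPM or more. Folds are plain ratios of CPM with exact 95% intervals of 2 read counts (Clopper-Pearson given their sum), which cover counting error only and treat reads as independent molecules. The steps were tested on simulated reads.

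The members, roles and gene lists were chosen with earlier results of these data known. The text names all 39 members, other pathway genes past 1.5-fold or among the 3 highest and 3 lowest of at least 10 CPM, and the highest marker of each list, and says where it names others. Among the other pathway genes, 1 that this rule selects is not reported here. Of the other pathway symbols, A2m and Cfd were not analysed here. Positions, lengths and shared 50-base stretches come from GENCODE M21 on GRCm38, the assembly that mm10 refers to, and upstream sequences from RefSeq on GRCm38.p6. Alternatives were 5 other scalings, added constants of 0.1 and 5 CPM, a floor of 1 CPM, of 50 CPM or none, counting at 1.2-fold or 2-fold, 3 changes of arm membership, and scaling to the hepatocyte markers, added after seeing the data. Computation used scipy 1.17.1, pandas 2.3.3 and numpy 2.4.6 under Python 3.11.15, and plots matplotlib 3.10.9.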

Additional observations from a re-analysis of the deposited data

How the results depend on the processing

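Under the 5 planned scalings the median log2 ratio of the members lay between -0.21 and -0.13. On these scales 27 to 30 of 37 stayed lower, where 42.5% to 60.9% of all genes of at least 10 CPM were lower. C8g, F10 and F13b changed sign when totals without Rn45s were made equal. Scaling to the sum of the 8 hepatocyte markers, added after seeing the data, multiplied the AAOT column by 1.15 and moved the median of all genes to 0.18. On that scale the medians were 0.0164 for the members, 0.0280 for coagulation, -0.0218 for fibrinolysis and 0.00119 for complement, 17 of 37 were lower, 13 changed sign, and 1 was at least 1.5-fold lower, beside 16.04% of all genes lower and 0.779% at least 1.5-fold lower. The distance of the members' median from that of all genes was -0.16 on this scale and on the deposited one. Any single factor leaves that distance nearly unchanged, so it does not test the scaling. The fibrinolysis median was -0.19 with equal totals, -0.25 with equal upper quartiles, -0.17 with equal totals without Rn45s and -0.15 without Vtn. At 2-fold 0 and at 1.2-fold 12 members were lower, beside 0.425% and 9.46% of all genes. The difference between complement and coagulation medians was 0.02 with a floor of 50 CPM and ranged from -0.08 to 0.02 over all settings. Of the values of single members, 237 moved by less than the margin of their counting interval and 75 by more. No paired analysis was possible because each group has 1 library. Depth limits F3, Tfpi and C6, and differences between mice were not measured.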

Other observations

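Further genes of these pathways, chosen after their values were seen, lay on both sides of equality. Clusterin (Clu), which binds the terminal complement complex in plasma, was at 1062 CPM in the AAOT pool and 1237 CPM in the control pool, a ratio of 0.858 with a 95% counting interval of 0.841 to 0.875. F8, the cofactor of factor IX, known as a product of endothelial cells, was at 40.6 CPM in the AAOT pool and 34.4 CPM in the control pool, 1.18-fold higher (1.06 to 1.32). C7, a further component of the terminal pore, was below 10 CPM, at 0.717 CPM in the AAOT pool and 1.67 CPM in the control pool.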
